A study of Rattus norvegicus with 10 samples.

Results

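Dbp, Bhlhe41 and Csnk1e are 3 genes of the circadian clock. Their methylation was read in the arcuate nucleus, a hypothalamic centre of appetite control, in young rats whose fathers had eaten a high-fat diet or chow. A region was taken as a member when the deposited table named one of the 3 genes as its gene. This gave 4 of the table's 8957 regions: 1 named for Dbp, 1 for Bhlhe41 and 2 for Csnk1e. The genes were picked with earlier results of these data known, and the table itself holds regions that the authors had selected on the comparison of paternal diets, so the levels of the groups below are a description and no test of them is given.

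The 10 offspring were Wistar rats, 5 of high-fat-fed fathers and 5 of chow-fed fathers, all born to chow-fed mothers. In both groups the fathers arrived on their postnatal day 21 and were mated on their postnatal days 90 to 100. Litters were adjusted to at most 8 pups on postnatal day 2. Chow was replaced by a high-fat diet in both groups on postnatal day 35, and the arcuate nucleus was taken on postnatal day 70. The offspring of chow-fed fathers were therefore not a group kept on chow. The labels leave out sex, sire, litter and the hour at which tissue was taken, and nothing says that littermates were kept apart. DNA was profiled by reduced representation bisulfite sequencing, which reads cytosine methylation in CpG-rich restriction fragments. The level of a region is the percentage of methylation averaged over its CpGs in 1 animal. The read depth behind each level is unknown.

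The clock of mammalian cells is a feedback loop in which the transcription factors CLOCK (or its paralog NPAS2) and BMAL1 (encoded by Arntl) bind DNA elements called E-boxes and switch on Per and Cry genes, whose proteins return to the nucleus and inhibit them. Csnk1e encodes casein kinase 1 epsilon, which phosphorylates PER proteins and sets their rate of turnover; a mutation of this kinase shortens the daily period of the tau hamster. Bhlhe41 encodes DEC2, a basic helix-loop-helix repressor that binds E-boxes and opposes CLOCK and BMAL1. Dbp encodes a PAR bZIP transcription factor, an output of the clock that binds D-box elements; in the mouse, CLOCK and BMAL1 bind E-boxes inside the Dbp gene.

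The start-site windows of the 3 genes are shown because methylation is read at CpGs and, by the table's own distances, the 4 regions lie outside such windows. Each runs from 250 bases before to 50 bases after the RefSeq start (build GRCr8, not the coordinate system of the methylation table), 5′ to 3′ on the gene's strand, with CpG dinucleotides, the sites that carry methylation, in capitals. The Dbp window is chr1:105312006-105312305 on the plus strand, the Bhlhe41 window chr4:180569306-180569605 on the minus strand and the Csnk1e window chr7:112887264-112887563 on the minus strand.
Dbp: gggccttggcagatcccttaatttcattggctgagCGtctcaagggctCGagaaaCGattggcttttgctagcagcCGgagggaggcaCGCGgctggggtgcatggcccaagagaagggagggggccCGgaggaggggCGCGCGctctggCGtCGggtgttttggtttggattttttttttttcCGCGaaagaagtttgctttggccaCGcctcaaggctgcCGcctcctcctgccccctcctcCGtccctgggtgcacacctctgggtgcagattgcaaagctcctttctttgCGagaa
Bhlhe41: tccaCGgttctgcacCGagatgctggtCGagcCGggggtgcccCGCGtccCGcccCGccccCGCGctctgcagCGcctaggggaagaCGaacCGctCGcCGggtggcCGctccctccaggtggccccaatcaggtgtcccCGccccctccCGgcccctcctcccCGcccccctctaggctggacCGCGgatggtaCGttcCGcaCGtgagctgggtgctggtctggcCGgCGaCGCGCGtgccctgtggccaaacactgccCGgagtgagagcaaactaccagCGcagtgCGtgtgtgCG
Csnk1e: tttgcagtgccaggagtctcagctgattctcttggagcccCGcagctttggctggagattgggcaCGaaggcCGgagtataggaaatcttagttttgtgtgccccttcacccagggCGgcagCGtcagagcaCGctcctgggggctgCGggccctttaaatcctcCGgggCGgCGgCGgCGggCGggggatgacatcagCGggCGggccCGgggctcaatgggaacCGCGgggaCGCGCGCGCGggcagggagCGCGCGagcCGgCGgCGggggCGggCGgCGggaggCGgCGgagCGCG

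The Csnk1e window held 36 CpGs, the Bhlhe41 window 33 and the Dbp window 18, against a median of 7 over 33469 rat promoter windows of the same length. The E-box CACGTG, a palindrome and so the same on both strands, occurred once in the Bhlhe41 window, with its first base 48 bases before the start. It was not found in the other two windows, and 6.42% of all windows held it. The D-box spellings TTATGTAA, searched on both strands, and TTACGTAA, also a palindrome, were found in none of the 3 windows, and 0.893% and 0.120% of all windows held them. A match here is a string of letters and not a measured site.

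The Dbp region (ENSRNOG00000021027) lay on chromosome 1 from 101689297 to 101689575, in exon 2 of 4 and 1139 bases after the nearest start site, as the table gives it, without naming its build. Its 10 CpGs were spread over 278 bases, so that 96.8% of the regions of the table were denser in CpGs. The level was 1.51% in 22HFB, 2.10% in 24HFB, 2.69% in 26HFB, 2.93% in 22HFR and 3.90% in 28HFB, the paternal high-fat animals. In paternal chow animals it was 0.741% in 4HFB, 0.921% in 6HFBB, 1.05% in 8HFB, 1.30% in 2HFB and 1.89% in 6HFB. The groups overlapped through a single pair, since the paternal chow animal 6HFB lay above the paternal high-fat animal 22HFB. The mean was 2.63% ± 0.902 in paternal high-fat and 1.18% ± 0.445 in paternal chow offspring (SD, n = 5 each), a difference of 1.45 percentage points and a 2.23-fold ratio. Leaving out 22HFB or 6HFB would separate the groups, so whether they overlap rests on 1 animal.

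The Bhlhe41 region (ENSRNOG00000048961) lay on chromosome 4 from 180232851 to 180232945, in exon 5 of 7 and 1906 bases after the start site. It held 26 CpGs in 94 bases, and 0.938% of the regions of the table held more. Its level was 0.718% in 28HFB, 1.57% in 22HFR, 2.40% in 24HFB, 3.10% in 22HFB and 3.31% in 26HFB, the paternal high-fat animals. In paternal chow animals it was 0% in 4HFB, 0.176% in 8HFB, 0.366% in 6HFB, 0.612% in 2HFB and 0.681% in 6HFBB. The groups did not overlap, but the lowest paternal high-fat animal stood 0.0369 points above the highest paternal chow animal, while the other paternal high-fat animals began at 1.57%. The means were 2.22% ± 1.08 in paternal high-fat and 0.367% ± 0.287 in paternal chow offspring (SD, n = 5 each), which is a difference of 1.85 points. Its ratio of 6.04 was the highest of the 4 regions, over the lowest paternal chow level.

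Both Csnk1e regions (ENSRNOG00000013076) were intergenic, upstream of the gene on chromosome 7, and were tied to it by distance. The nearer ran from 120675100 to 120675173, 2778 bases before the start site, with 13 CpGs; the farther ran from 120675519 to 120675566, 3184 bases before it, with 10 CpGs. They lay 346 bases apart. RefSeq (GRCr8) places Kcnj4, a potassium channel gene, next upstream of Csnk1e and Tmem184b on its other side.

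At the farther Csnk1e region the level was 1.74% in 22HFB, 2.50% in 28HFB, 2.86% in 26HFB, 3.45% in 24HFB and 6.25% in 22HFR, the paternal high-fat animals. In paternal chow animals it was 0% in 4HFB, 0.690% in 6HFB, 0.938% in 8HFB, 1.03% in 6HFBB and 1.54% in 2HFB. The groups did not overlap, with a gap of 0.198 points between the lowest paternal high-fat and the highest paternal chow animal. The means were 3.36% ± 1.73 in paternal high-fat and 0.838% ± 0.561 in paternal chow offspring (SD, n = 5 each), a 4.01-fold ratio. The difference of 2.52 points was the largest of the 4 regions, and it was 1.80 points without 22HFR.

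At the nearer Csnk1e region the level was 2.00% in 28HFB, 2.25% in 26HFB, 2.40% in 24HFB, 3.84% in 22HFB and 4.34% in 22HFR, the paternal high-fat animals. In paternal chow animals it was 0.258% in 4HFB, 0.521% in 2HFB, 0.891% in 6HFBB, 1.99% in 6HFB and 3.22% in 8HFB. The groups overlapped because 8HFB stood above 3 of the 5 paternal high-fat animals; the other paternal chow animals stayed below all of them. The means were 2.97% ± 1.05 in paternal high-fat and 1.38% ± 1.23 in paternal chow offspring (SD, n = 5 each), a difference of 1.59 points. Averaged over its 2 regions, Csnk1e had 3.16% ± 1.22 in paternal high-fat and 1.11% ± 0.705 in paternal chow offspring (SD, n = 5 each).

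**Figure D1:**
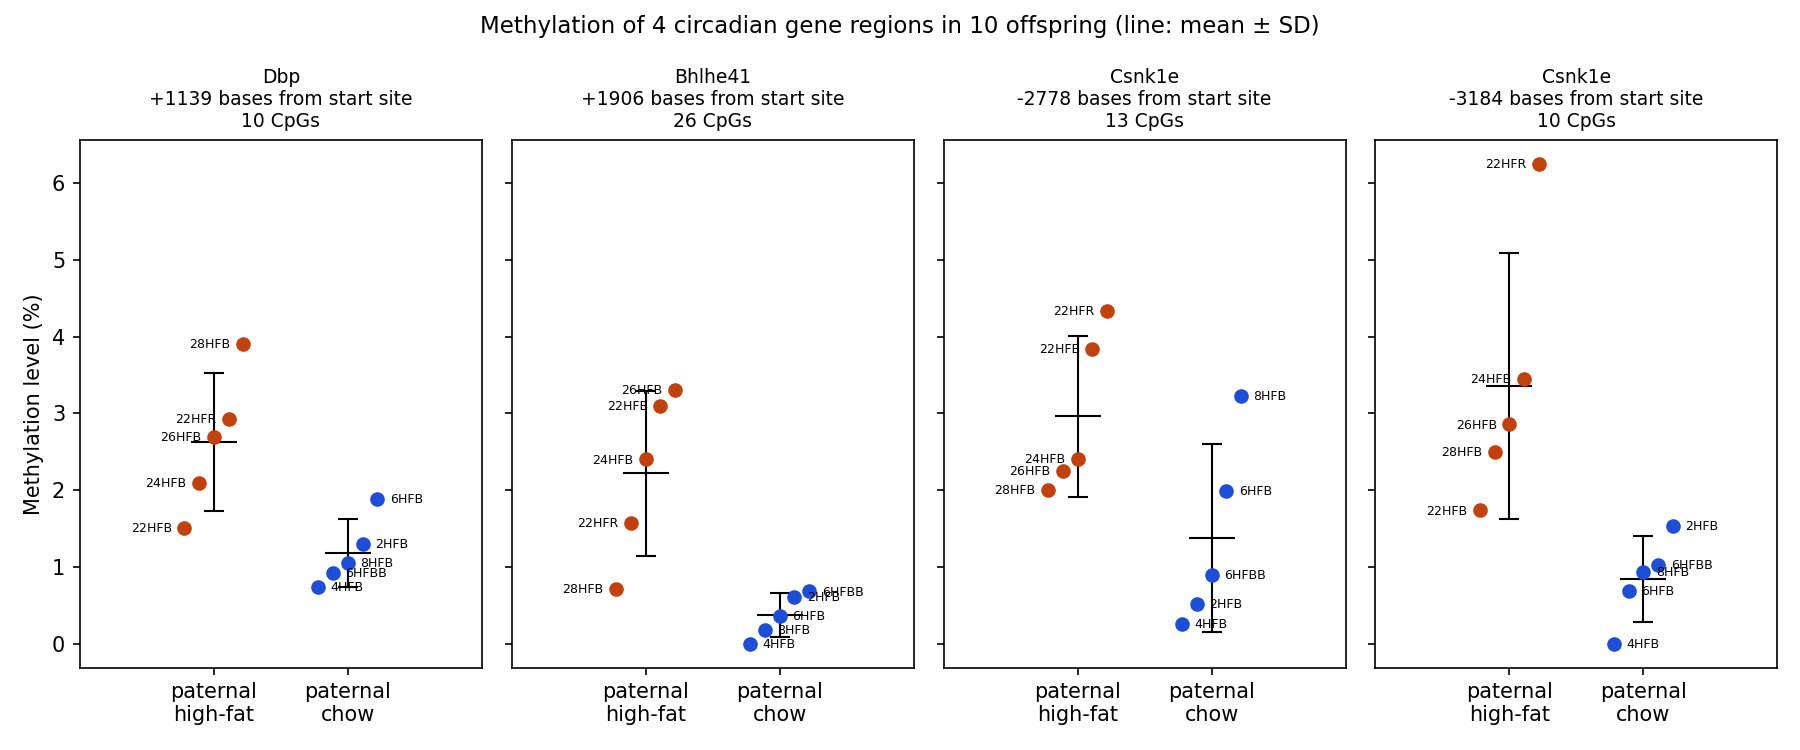
Methylation level in percent (vertical axis) of the 4 regions in each of 10 animals, named beside their points; black lines give the mean and SD of 5 animals. At Bhlhe41 and the farther Csnk1e region (−3184) the paternal high-fat points lie above all paternal chow points, by 0.0369 and 0.198 points at the closest; at Dbp and the nearer Csnk1e region they overlap.

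The 4 regions were thus higher in mean level in paternal high-fat offspring, which was also so at 71.0% of all regions of the table. Of the 4, 2 had groups that did not overlap, against 3.93% of all regions with such a gap in this direction; the members were chosen with these values known, and nothing is read from this count. In the authors' deposited table the q-value was 1 at 8770 of the 8957 regions, the 4 members among them. A q below 0.05 was held by 0.848% of all regions. With limma fitted over the table, 0 of 8957 regions (0%) passed an adjusted p of 0.05, so no member did. Unadjusted, 1875 regions had a limma p below 0.05. An exact permutation test per region called 0 after adjustment and had 2205 of 8838 at an unadjusted p below 0.05. With 5 animals per group its smallest possible p-value is large for so many regions, so its 0 calls add little. The differences lay within the range common in the table: 65.5% of regions differed by more than Dbp, 57.2% by more than the nearer Csnk1e region, 45.5% by more than Bhlhe41 and 25.6% by more than the farther Csnk1e region.

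The whole table stood higher in paternal high-fat offspring. The median level over all regions was 2.03% to 3.67% in paternal high-fat and 1.44% to 1.91% in paternal chow animals, a difference of 1.03 points between the group means. Centred on these medians, the 4 regions kept their direction with smaller differences: 0.416 points at Dbp, 0.558 at the nearer Csnk1e region, 0.819 at Bhlhe41 and 1.49 at the farther Csnk1e region. The median centred difference of all regions was 0.378 points, close to that of Dbp. After centring, 0 of the 4 regions had groups without overlap, and 0.636% of all regions had such a gap with paternal high-fat higher.

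Averaged over the 4 regions, the level was 2.28% to 3.77% in paternal high-fat animals and 0.250% to 1.35% in paternal chow animals. Animal 22HFR had both the highest average of the 4 regions and the highest median of all regions. Animal 4HFB was the lowest paternal chow animal at each of the 4 regions and at 0% in 2 of them, although its median over all regions, 1.74%, was in the middle of its group. This animal also had the most missing levels in the table, 82 of 8957, none of them at the 4 regions. Whether a thinner library bears on its low levels was not tested.

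**Figure D2:**
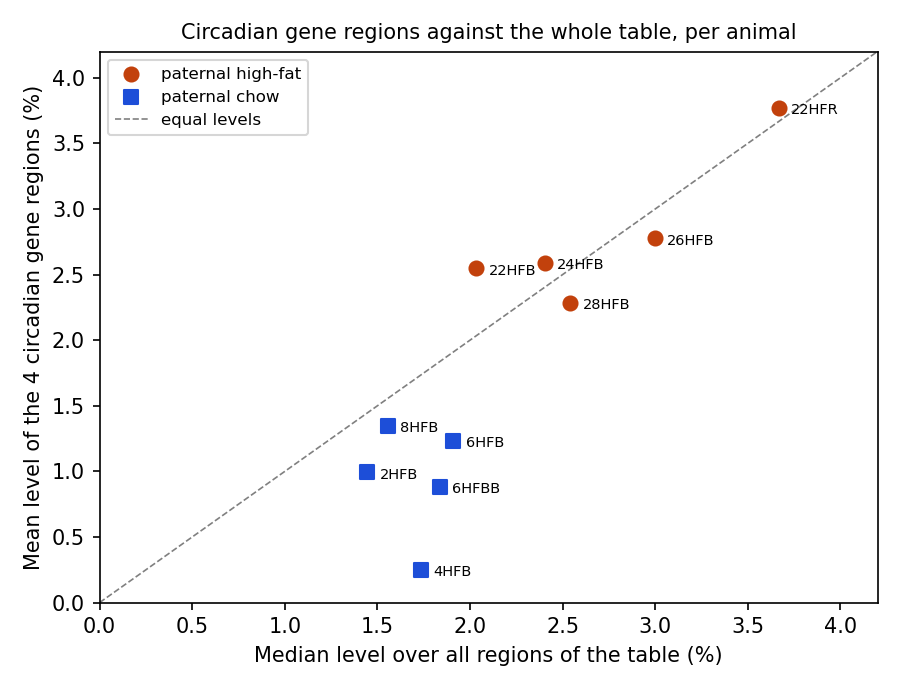
Mean level of the 4 circadian gene regions (vertical axis, percent) against the median level over all 8957 regions (horizontal axis, percent), 1 point per animal; the dashed line marks equal levels. Paternal high-fat animals lie on either side of the line, at 2.28% to 3.77%. Paternal chow animals lie below it, 4HFB farthest at 0.250%. The vertical distance from the line ran from −0.260 to 0.513 points in paternal high-fat and from −1.49 to −0.207 points in paternal chow animals. The groups thus overlap: the paternal high-fat animals 26HFB (−0.220) and 28HFB (−0.260) lie farther below the line than the paternal chow animal 8HFB (−0.207).

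Within a paternal diet the genes did not rank the animals alike, apart from 4HFB, the lowest paternal chow animal at each region. Animal 28HFB had the highest Dbp level of the paternal high-fat animals and the lowest Bhlhe41 level. Animal 22HFB had the lowest level at Dbp and at the farther Csnk1e region but the next-to-highest at the other two. Over the deviations of the 10 animals from their group means, Pearson's r was −0.66 between Dbp and Bhlhe41 and 0.34 between both Csnk1e regions, and the other 4 pairs of regions lay between −0.25 and 0.25. These are descriptions of 10 points that share their libraries and unknown depths.

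The Csnk1e regions could be compared with each other on a measure that the choice of genes did not use. Over the 10 animals the farther region averaged 2.10% ± 1.80 and the nearer 2.17% ± 1.36 (SD), a within-animal difference of −0.07 ± 1.41 points, with the farther region higher in 6 of 10 animals. The difference was well inside the spread between animals (two-sided exact sign-flip permutation test, p = 0.869, 1 pair tested). It averages over groups whose means lay on opposite sides, 0.392 points in paternal high-fat (exact p = 0.562) and −0.538 points in paternal chow offspring (exact p = 0.375). With 5 animals this test cannot reach 0.05. The split by paternal diet also brings back the comparison known when the genes were chosen, so nothing is read from it.

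For each gene, the regions of other genes whose deviations from the group means were most like its own were sought among the 8838 regions complete in 10 animals. Pearson's r reached 0.95 for a region in exon 3 of Ranbp9 against Dbp, followed by 0.95 for the Slc9a3 promoter and 0.93 for AABR07053500.1. The Bhlhe41 deviations were nearest to those of a Shisa3 exon (0.93), the Depdc5 promoter (0.92) and the Sbf2 promoter (0.91). Those of Csnk1e, averaged over its regions, were nearest to intergenic regions named for Mirlet7c2 (0.96) and AABR07069454.1 (0.95) and to an intron of Sipa1l2 (0.95). No circadian gene was among these 9, but the circadian list below held only 36 of the 8957 regions, so nothing is read from this. Each r is picked from 8838 over 10 animals.

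Neighbouring regions did not all share the direction of the members. Within 150000 bases of the Dbp region the table held 12 regions named for other genes, 7 of them higher in mean level and 5 lower after paternal high-fat feeding. Of the pair nearest to Dbp on the far side of RefSeq's next gene, Sphk2, both named for the ribosomal protein gene Rpl18, one averaged 0.973% ± 0.836 in paternal high-fat and 3.28% ± 4.99 in paternal chow offspring (SD, n = 5 each). The other averaged 3.46% ± 1.92 in paternal high-fat and 1.45% ± 0.273 in paternal chow offspring. Around the Csnk1e regions 5 others were listed, 3 higher and 2 lower. The 3 higher ones were all in the Kcnj4 intron that also held 1 of the lower ones, with differences of 1.54 to 1.61 points. The lower ones were a Kcnj4 intron region at 4.03% ± 1.69 in paternal high-fat and 5.68% ± 4.56 in paternal chow offspring, and a Maff region in intron 1 of 2 at 0.544% ± 0.343 in paternal high-fat and 4.35% ± 2.45 in paternal chow offspring (SD, n = 5 each). The groups did not overlap at the Maff region. Its q-value in the authors' deposited table was 0.000101, against 1 at 8770 of all 8957 regions, the 4 members among them.

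The wider clock pathway was described with a list of 44 symbols, chosen with earlier results of these data known. Apart from the 3 genes, 21 of them had 32 regions, of which 24 had a higher mean after paternal high-fat feeding and 8 a lower one (75%, beside 71.0% of all regions). Their median difference was 1.36 points, beside 1.41 points over all regions, and 0 of the 32 had groups without overlap, beside 5.15% of all regions in either direction. No region of the list passed limma, as no region of the table did, and 0 had a q below 0.05 in the authors' deposited table, beside 0.848% of all regions. Their mean levels over all animals lay between 0.950% and 3.55%, and 26 of the 32 lay within 1000 bases of a start site, as did 5950 of all 8957 regions and 0 of the 4 regions of Dbp, Bhlhe41 and Csnk1e. Those of the relatives Bhlhe40 (−1082) and Nfil3 (+2283 and +4364) also lay beyond that distance.

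**Figure D3:**
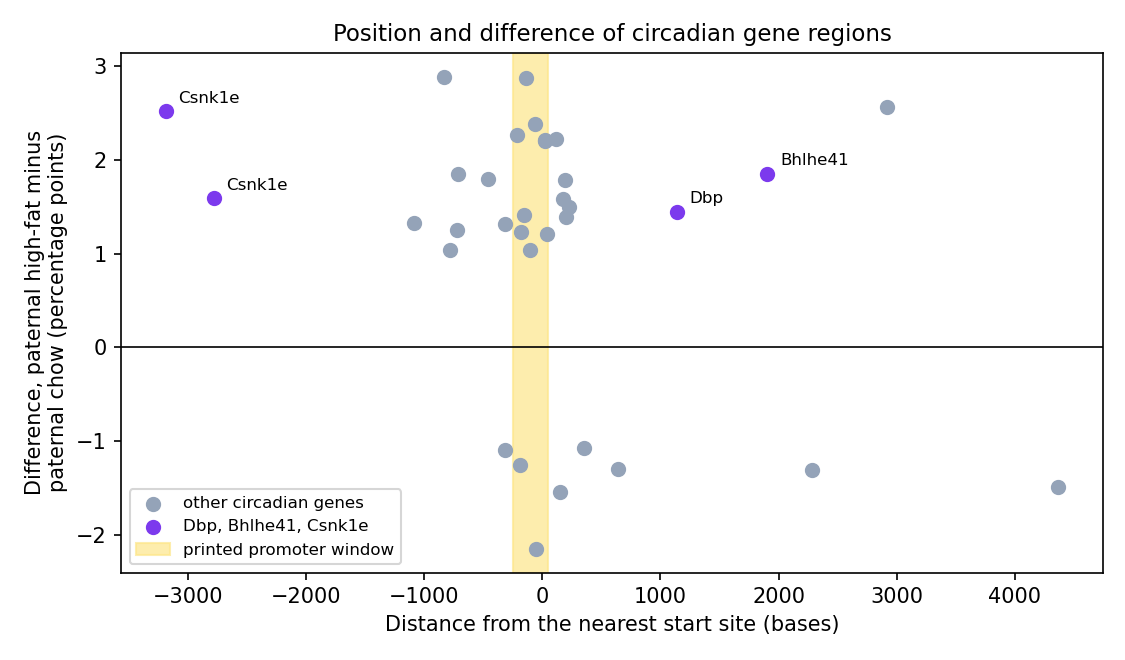
Difference in mean level, paternal high-fat minus paternal chow in percentage points (vertical axis), against distance from the nearest start site in bases (horizontal axis), for the 34 circadian gene regions within 5000 bases of a start site. The shaded window runs from 250 bases before to 50 after the start; Dbp (+1139), Bhlhe41 (+1906) and both Csnk1e regions (−2778 and −3184) lie outside it and above 0.

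Close relatives of the 3 genes are given first. Csnk1d, the paralog kinase of Csnk1e, averaged 3.42% ± 2.70 in paternal high-fat and 1.22% ± 0.883 in paternal chow offspring at its promoter. Bhlhe40, which encodes the DEC1 repressor and is the paralog of Bhlhe41, averaged 2.84% ± 1.46 in paternal high-fat and 1.51% ± 1.63 in paternal chow offspring (SD, n = 5 each) at 1082 bases before its start. Both relatives thus had higher means in paternal high-fat offspring, as Csnk1e and Bhlhe41 had, with groups that overlapped.

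Of the listed bZIP relatives of Dbp, Tef and Nfil3 had regions, with means on the other side. Hlf, also listed, had no region. Tef, another PAR bZIP activator of D-boxes, averaged 1.27% ± 1.02 in paternal high-fat and 2.37% ± 1.73 in paternal chow offspring. Nfil3, a repressor that competes for D-boxes, averaged 2.42% ± 0.895 in paternal high-fat and 3.73% ± 1.52 in paternal chow offspring at one intronic region. At the other it averaged 2.10% ± 1.44 in paternal high-fat and 3.58% ± 1.14 in paternal chow offspring (SD, n = 5 each). So Dbp had its higher mean, and these 3 regions their lower one, after paternal high-fat feeding, and the groups overlapped at each of the 4.

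Among the activators of the loop, the Clock region, 28232 bases from its start site, averaged 2.33% ± 1.90 in paternal high-fat and 0.842% ± 0.9997 in paternal chow offspring. The 3 Npas2 regions, at −833, −725 and +175 bases, averaged 4.44% ± 2.76, 1.58% ± 1.71 and 3.90% ± 1.59 in paternal high-fat offspring, against 1.56% ± 1.33, 0.322% ± 0.306 and 2.32% ± 1.94 in paternal chow offspring. Arntl had regions with means on either side. The regions at −777 and +41 bases averaged 2.42% ± 1.12 and 2.07% ± 1.20 in paternal high-fat offspring, against 1.38% ± 0.377 and 0.858% ± 1.08 in paternal chow offspring. Those at +356 and +642 bases, in the first intron, lay the other way, with 1.24% ± 0.859 and 1.22% ± 1.18 in paternal high-fat offspring against 2.31% ± 0.760 and 2.52% ± 2.54 in paternal chow offspring (SD, n = 5 each). At each of these activator regions the groups overlapped, so no pattern by position is read from Arntl.

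Among the repressors of the loop, the Per2 promoter regions at −217 and −317 bases averaged 3.66% ± 3.77 and 2.07% ± 0.890 in paternal high-fat offspring, against 1.39% ± 1.77 and 0.761% ± 0.801 in paternal chow offspring. The Per3 promoter regions at −107 and −709 bases averaged 2.29% ± 0.503 and 4.48% ± 0.828 in paternal high-fat offspring, against 1.25% ± 0.631 and 2.63% ± 1.95 in paternal chow offspring. Both genes thus had higher means after paternal high-fat feeding. The Cry2 promoter lay the other way, at 0.797% ± 0.971 in paternal high-fat and 2.05% ± 1.58 in paternal chow offspring (SD, n = 5 each). At each of these the groups overlapped.

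**Figure D4:**
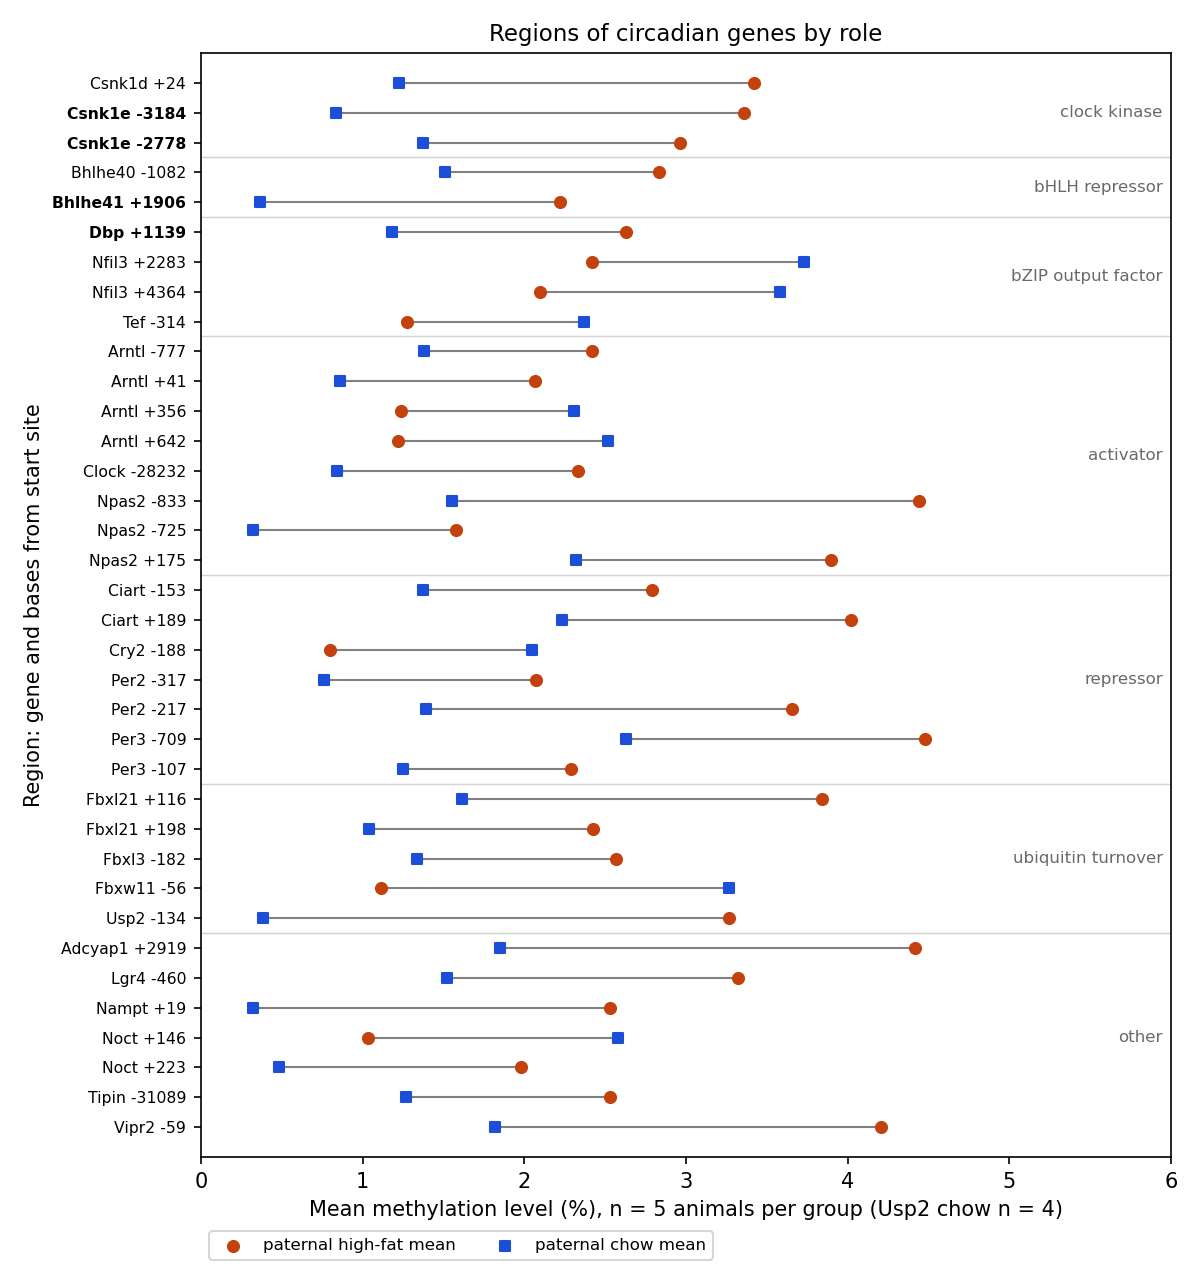
Mean methylation level in percent (horizontal axis) of the 36 circadian gene regions, grouped by role; circles are paternal high-fat and squares paternal chow means of 5 animals (4 for paternal chow Usp2), and the number after a gene is its distance in bases from the start site. Regions of Dbp, Bhlhe41 and Csnk1e are in bold, and Tef and Nfil3 lie the other way from Dbp.

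The tissue holds many cell types, and a different mix of cells cannot be told apart from a change of methylation within cells. Of 31 marker genes of arcuate neurons, neurons in general, glia and vessels, 9 had 15 regions. Of these regions, 11 had a higher mean after paternal high-fat feeding (73.3%, beside 71.0% of all regions) and 4 a lower one. The summed level of the 15 was 255% to 321% in paternal high-fat and 243% to 258% in paternal chow animals. The whole table also stood higher in paternal high-fat offspring. Of the 15, 0 were at 0 in all animals. By cell type, 5 of 7 oligodendrocyte, 4 of 5 general neuron and 2 of 2 astrocyte and tanycyte regions had a higher mean after paternal high-fat feeding, and the single arcuate neuron region, named for Pomc, had a mean lower by 8.07 points. Differences ran from −2.62 to 14.3 points at the oligodendrocyte regions and from −1.03 to 7.86 points at the general neuron regions. The part of these cell types in the levels of the clock genes was not tested.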

How the data were processed

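Per the labels' protocols, a Zymo-Seq kit turned arcuate nucleus DNA into reduced representation bisulfite libraries. The submitters' processing notes name Trim Galore, Bismark and Bowtie; versions, genome build and coverage filter were not given in the sources used here. Regions were called with metilene, per the file headers. The authors deposited a methylation fraction for each region in each animal and for each group, with q-values and p-values; the deposited count of CpGs per region ran from 10 to 58 and no absolute difference was under 1 percentage point. Fractions were multiplied to percent. No read counts came with them, so depth and counting error are unknown. Whether start positions count from 0 or 1 is not given.

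The names of the columns tell an animal's group and not its sample, so each group had 5 unnumbered replicates, and any p-value reflects only how these samples vary, which may include littermates. Of 89570 levels 127 were missing, 0 of them at the 4 regions.

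The members, gene lists and tests were chosen with earlier results of these data known. Levels were fitted with limma 3.58.1 (R 4.3.3, empirical Bayes, mean-variance trend, Benjamini-Hochberg over all regions at 0.05), a step tested on simulated data. That check required few false calls, and recovery only of differences far larger than those of the 4 regions. The 0 calls therefore do not show that differences of their size are absent. Animals were also centred on their median over all regions. Named regions were all those of the 3 genes, of the core loop genes and of the relatives of the 3 genes, and the 3 most alike in pattern; Maff, Kcnj4 and Rpl18 were added as neighbours after their values were seen. Promoter windows came from RefSeq (GRCr8), in which 3 of the 3 genes and 42 of the 44 listed symbols matched. Python 3.11.15, pandas 2.3.3 and matplotlib 3.10.9 were used.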

Additional observations from a re-analysis of the deposited data

Results flagged for a closer look

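At the regions of the 3 genes, the core loop genes and their relatives, 44 groups of 5 animals were checked. In 4 of them an animal lay far from the rest of its group. The rule flags about 1 in 20 groups of normally distributed values, a rate that need not hold for levels bounded at 0. All 4 flags were high values in paternal chow animals. None was at a region of Dbp, Bhlhe41 or Csnk1e. The paternal chow animal 4HFB, the lowest of its group at the 4 member regions, was far above it at Bhlhe40 (4.38%, the others 0.489% to 1.28%) and at the Per2 region at −217 bases (4.48%, the others 0.194% to 1.22%). The paternal chow animal 8HFB stood at 2.74% at the Arntl region at +41 bases (the others 0% to 0.605%), and 6HFB at 2.56% at the Clock region (the others 0% to 0.699%).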

How the results depend on the processing

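The 4 regions had a higher mean in paternal high-fat offspring under each setting run. Centring each animal on its median over all regions lowered the mean difference to 0.416 points for Dbp, 0.819 for Bhlhe41 and 1.02 for Csnk1e, and the number of regions without overlap to 0; the cause was not tested. Leaving out each animal in turn gave 1.13 to 1.73 points for Dbp, 1.58 to 2.23 for Bhlhe41 and 1.52 to 2.30 for Csnk1e, and 2 to 3 regions without overlap. The deposited group means, group medians, weights by CpG number, a minimum of 15 CpGs (which leaves Bhlhe41 alone) and, chosen after seeing the data, averaging of columns that share a leading number moved no mean difference by more than 1 SD. The difference between the Csnk1e regions was 0.392 points within paternal high-fat offspring (exact sign-flip permutation p = 0.562) and −0.538 points within paternal chow offspring (exact p = 0.375). With 5 animals this test cannot reach 0.05, so nothing is read from these p-values. The difference was −0.294 to 0.173 points when each animal was left out, and never past the test there. Limma called 0 regions under each setting run. No paired analysis was possible because the columns carry no replicate numbers. Unknown depth limits all levels here, which lie near 0.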

Other observations

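Further clock-related genes had means on either side. The first exon of Noct, a rhythmically expressed deadenylase-family gene, held a region at +146 bases with 1.04% ± 0.817 in paternal high-fat and 2.58% ± 2.14 in paternal chow offspring, and one at +223 bases with 1.98% ± 1.01 in paternal high-fat and 0.485% ± 0.548 in paternal chow offspring (SD, n = 5 each), so its 2 regions lay on opposite sides. Both Fbxl21 regions, of an F-box gene whose product binds cryptochromes, had higher means after paternal high-fat feeding, with 3.84% ± 2.44 and 2.43% ± 3.02 in paternal high-fat offspring, against 1.61% ± 1.25 and 1.04% ± 1.29 in paternal chow offspring (SD, n = 5 each). Fbxw11, which encodes an F-box protein of the ligase that degrades PER proteins, averaged 1.12% ± 1.09 in paternal high-fat and 3.27% ± 0.579 in paternal chow offspring (SD, n = 5 each). These genes were named after their values were seen.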
